A study of Homo sapiens with 10 samples.

Results

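Newly made and total RNA of 10 genes of nuclear speckles was measured in 22RV1 cells, a human prostate cancer cell line that grows without androgen, treated for 4 h with inhibitors of splicing and transcription kinases. The genes were SON, SRRM1, SRRM2, PNN, LUC7L3, RBM39, TRA2A and TRA2B, whose proteins carry stretches rich in arginine and serine (RS domains) or bind such proteins, and the cyclins L, CCNL1 and CCNL2. They were chosen by name, with earlier results of these data known, as genes of this kind known for retained introns and poison exons. The transcript identifiers in the deposited tables were mapped to gene symbols to find them. All 10 were found among 31014 genes, and all 10 passed the low-count filter in both measures, beside 9945 genes tested for nascent and 14688 for total RNA.

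The 5 groups of 2 libraries each were control cells without inhibitor and cells given 20 µM SRPIN340, 50 µM Endovion (SCO-101), THZ531, or THZ531 together with Endovion. SRPIN340 and Endovion were used as inhibitors of SRPK1, a kinase of RS domains, and THZ531 as an inhibitor of CDK12, which with CDK13 and cyclin K phosphorylates RNA polymerase II. For THZ531 the description of the series gives 150 nM and the methods give 100 nM. All cells received 4-thiouridine for the last 10 min, the RNA was alkylated, and libraries of mRNA 3′ ends were sequenced, so that a read with a T>C conversion marks RNA made during the pulse. T>C reads are called nascent RNA below and all reads total RNA. No library without 4-thiouridine was analysed here, so the T>C background was not measured. The labels do not say whether the libraries of a group came from separate cultures, and the p-values measure only the spread between these libraries.

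Nuclear speckles are bodies between the chromosomes in which splicing factors and polyadenylated RNA collect. SON and SRRM2 form their core, and many speckle proteins, like the SR proteins themselves, are held and released through phosphorylation of their RS domains by SRPK, CLK and DYRK kinases. Several of these genes regulate their own mRNA, through an ultraconserved poison exon in TRA2A and TRA2B, through introns that stay in the RNA, or through polyadenylation inside an intron, and CDK12 is known to hold back polyadenylation inside introns. Cyclins L1 and L2 are partners of the CDK11 kinases, which act in splicing.

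The results turn on single 3′ ends of SON and SRRM2, and the bases around the polyadenylation signals of these ends are shown from hg38, 5′ to 3′ on the transcribed strand. The capitals mark the signal, AATAAA or its common variant ATTAAA, searched in the 50 bases before the end of an interval on the sense strand only, also where the interval is shorter.
SON-203 end, inside intron 4 of SON-202, interval chr21:33557552-33559056 (plus strand): tagtaggtgctcAATAAAtgttgttgactg
SON-201 end, inside intron 6 of SON-202, interval chr21:33560132-33560667 (plus strand): gctgtatcttttAATAAAcagtttactttt
SON-202 end, last exon, interval chr21:33576425-33577481 (plus strand): aaacttctctggAATAAA
SRRM2-205 end, inside intron 10 of SRRM2-201, interval chr16:2760512-2760845 (plus strand): ttctcttttttcATTAAAtgctggtcatgt
SRRM2-201 end, last exon, interval chr16:2770868-2771412 (plus strand): ctttttctgtcaAATAAAaatgagaaatgc

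SON-202 and SRRM2-201 are the canonical transcripts, and the intronic ends are annotated as 3′ UTRs of shorter protein-coding transcripts. A signal lay near 15 of the 20 ends of the 10 genes, AATAAA near 9 and ATTAAA near 6. Over all 57504 ends kept, 37.85% held either motif, 30.3% AATAAA and 7.57% ATTAAA alone. A match describes the letters of the genome and not a used site. The 20 bases after the end held 5 A at SON-201 and 4 at SRRM2-205, against a median of 5 over all ends.

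Reads on genes ranged from 19315543 to 30048083 per library, and T>C reads from 1011596 to 1576080, or 5.04% to 5.70% of reads. All 9 prostate markers had reads in every library, from 7056 to 11906 for KRT18 down to 49 to 227 for KLK3 and 21 to 52 for TMPRSS2. Of 8 markers of other cell types, CD3E, COL1A2 and VWF were at 0 in all 10 libraries. PTPRC, COL3A1 and PECAM1 had at most 6, 8 and 1 reads. COL1A1 had 40 to 83 reads and ALB 195 to 370, which is more than TMPRSS2 had for ALB. Levels are given as CPM, the count relative to the T>C reads of the library or to all its reads after TMM scaling. In bulk RNA scaled in this way, fewer cells and less RNA per cell cannot be told apart. Because a 3′ end library yields reads from the end of each mRNA only, with no scale per length, levels are compared between libraries and not between genes. Scaling by upper quartiles in place of TMM moved the median log2 change of all genes in total RNA from -0.01 to -0.13 with THZ531 and turned its split of calls from 2435 up and 2073 down to 1860 up and 2766 down. With THZ531 and Endovion it moved that median from -0.00 to -0.15.

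With THZ531, 3 of the 10 genes rose in nascent RNA, namely SON, SRRM1 and TRA2B, and none fell (edgeR's quasi-likelihood test, adjusted p under 0.05). Of all genes tested 3.86% rose and 7.46% changed. In total RNA SON, SRRM1, PNN, CCNL1 and TRA2B rose and none fell, 5 of 10, where 16.6% of all genes rose and 30.7% changed. The median log2 change of the 10 genes was 0.27 in nascent and 0.38 in total RNA, against -0.02 and -0.01 over all genes. In 9 of the 10 genes both THZ531 libraries lay above both control libraries in total RNA, and in 5 of the 10 in nascent RNA. The matching counts over all genes are not reported here, so these counts are not read as a result about the 10 genes.

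With THZ531 and Endovion together, SRRM1 was the gene of the 10 that rose in nascent RNA, where 4.62% of all genes rose and 8.11% changed. In total RNA SRRM1, PNN, RBM39, CCNL1 and TRA2B rose, 5 of 10, where 16.6% of all genes rose and 29.0% changed. The medians were 0.31 in nascent and 0.27 in total RNA, against -0.01 and -0.00 over all genes. Compared with THZ531 alone, none of the 10 genes passed the test when Endovion was added, in nascent RNA (0.322% of all genes changed) or in total RNA (0.511%), and 1 of 10 in each had an unadjusted p under 0.05, as had 777 of 9945 and 1623 of 14688 of all genes. The interaction of THZ531 and Endovion in nascent RNA was called for none of the 10 genes (0.302% of all genes).

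With SRPIN340 none of the 10 genes passed the test in nascent RNA, where 1.04% of all genes changed, or in total RNA, where 1.96% changed, and 1 and 3 of them had an unadjusted p under 0.05, as had 1036 of 9945 and 2833 of 14688 of all genes. With Endovion none passed in nascent RNA, where 2.66% of all genes changed, and 1 had an unadjusted p under 0.05, as had 1400 of 9945 of all genes. RBM39 rose in total RNA with Endovion, where 8.91% of all genes rose and 11.4% changed. The share of reads with a T>C conversion was called for none of the 10 genes in any treatment, against 0.161% of all genes with SRPIN340, 0.442% with Endovion, 0.342% with THZ531 and 1.02% with both compounds. Between 1 and 4 of the 10 genes per treatment had an unadjusted p under 0.05 for the share, as had 810 to 1204 of 9945 of all genes. The 2 control libraries served for all 4 treatments.

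**Figure D1:**
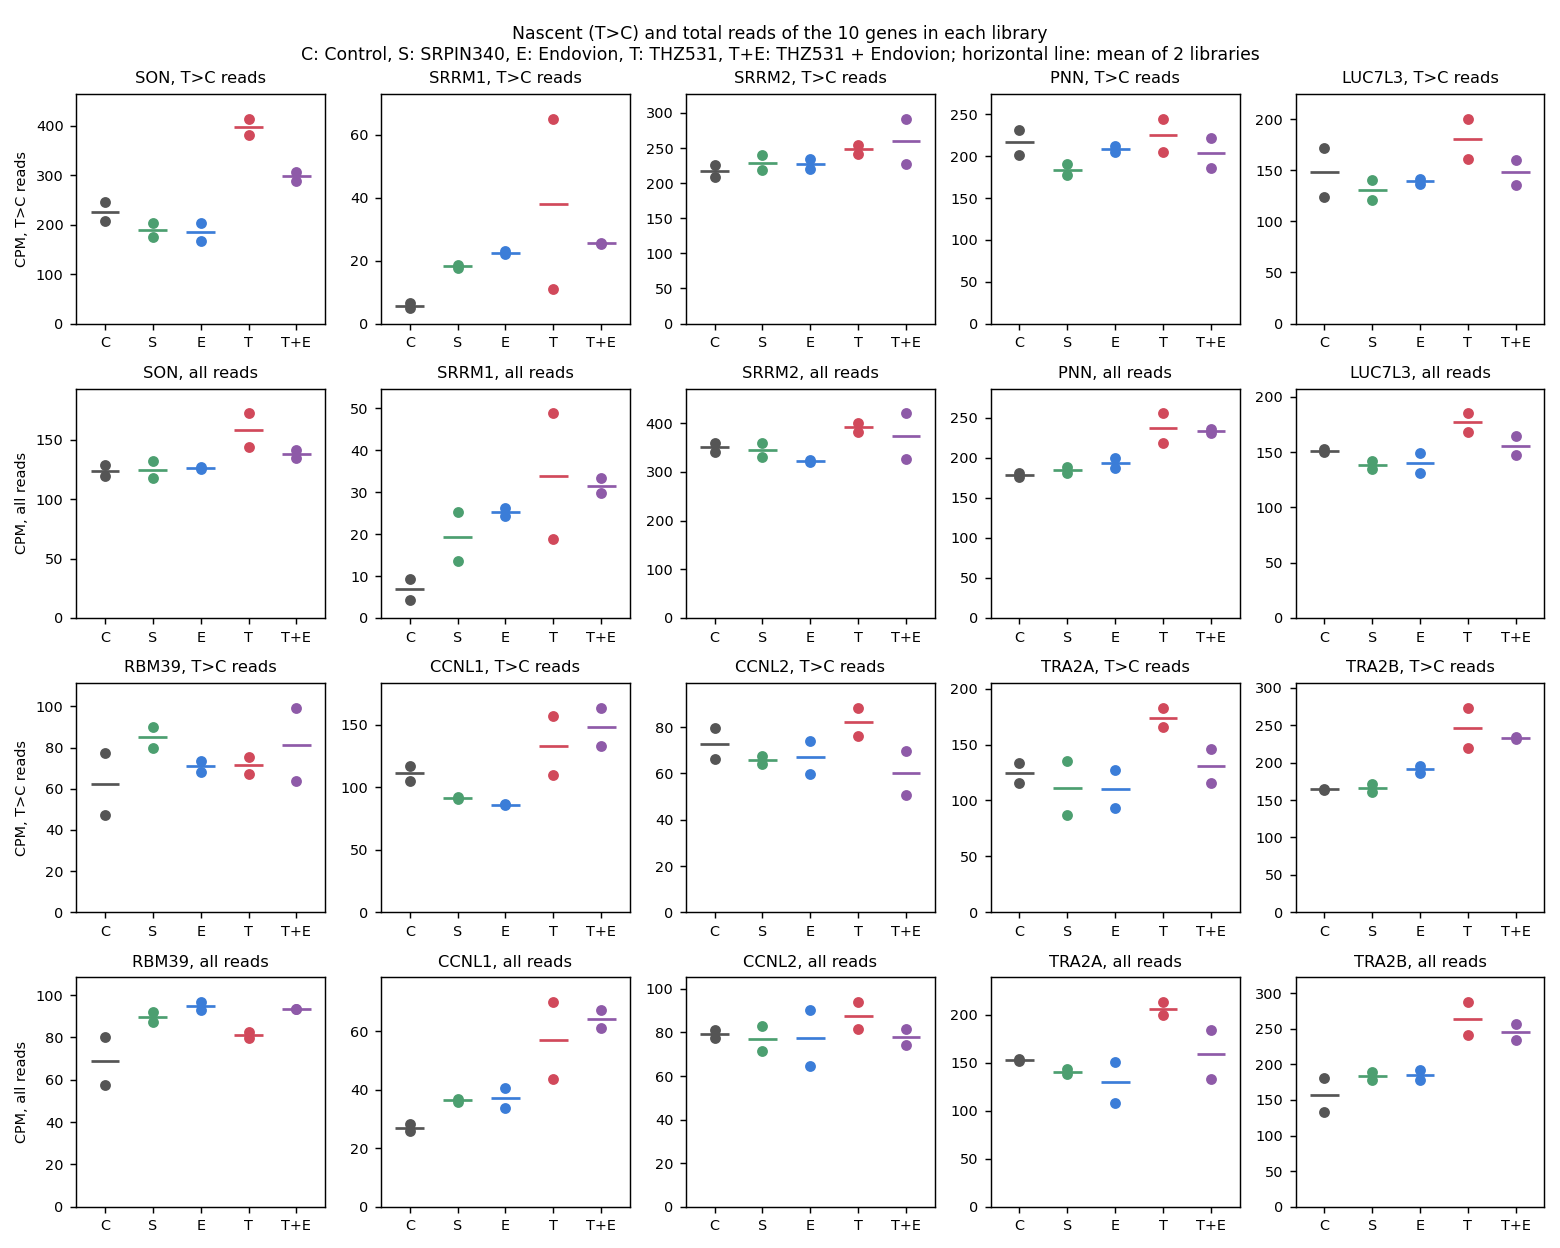
CPM of T>C reads (rows 1 and 3) and of all reads (rows 2 and 4) of the 10 genes, with a point for each library and a line for the mean of the 2 libraries of a group. SON in nascent RNA and CCNL1 and TRA2B in total RNA lie higher in both THZ531 libraries than in both controls, and SRRM1 differs widely between the 2 THZ531 libraries.

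**Figure D2:**
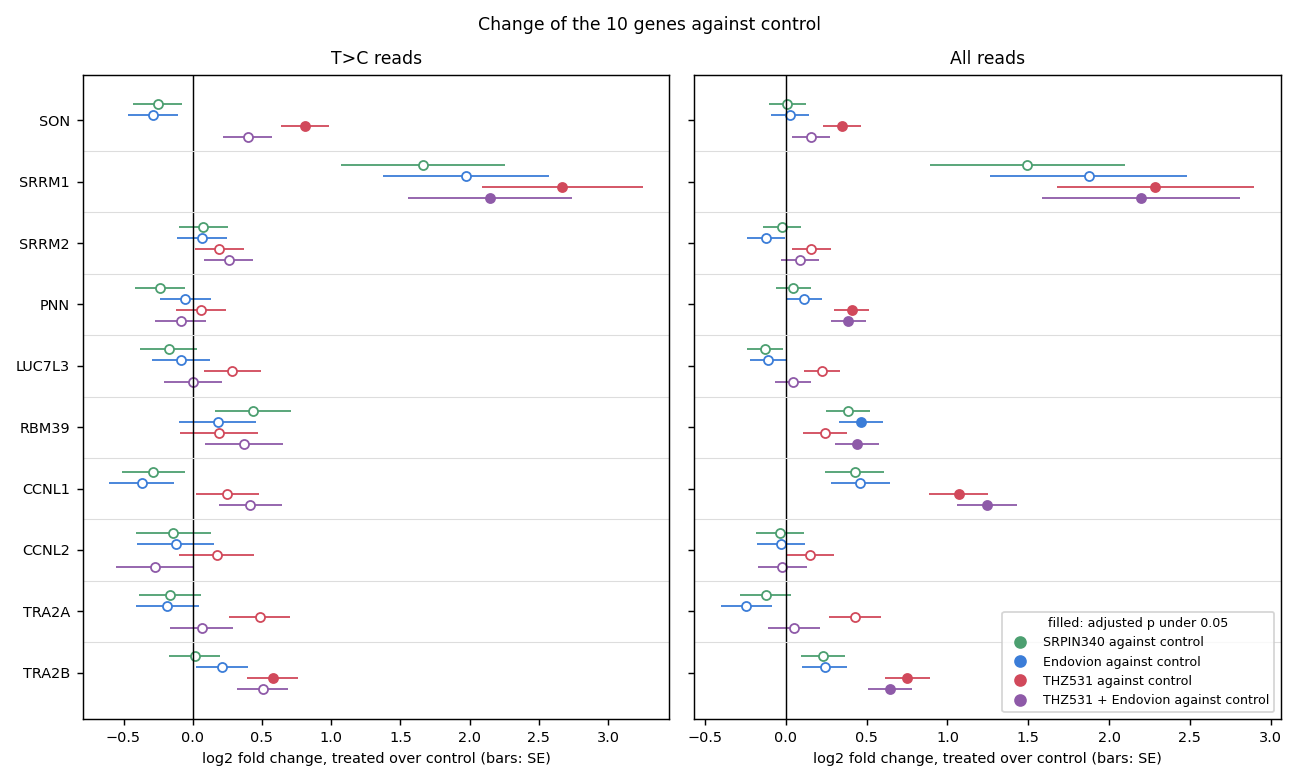
log2 fold change of each gene against control with its standard error, in T>C reads (left) and all reads (right), for the 4 treatments. Filled points passed the adjusted threshold: 3 genes in nascent and 5 in total RNA with THZ531, 1 and 5 with THZ531 and Endovion, and RBM39 in total RNA with Endovion.

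SON (ENSG00000159140, chr21:33543038-33577481, plus strand) encodes a large scaffold of the speckle core, which is needed for splicing of weak introns. T>C reads numbered 321 and 307 in control cells, 260 and 325 with SRPIN340, 265 and 173 with Endovion, 586 and 407 with THZ531, and 362 and 293 with both compounds. Scaled to depth, nascent SON was at 226 ± 28.1 CPM (SD, n = 2) in control cells and at 398 ± 22.9 CPM with THZ531, and the groups did not overlap. The rise was 1.76-fold (log2 0.81, SE 0.17, edgeR adjusted p = 0.001). In total RNA SON rose 1.27-fold with THZ531, from 124 ± 6.19 to 158 ± 20.3 CPM (SD, n = 2, edgeR adjusted p = 0.0328). That call was lost without control replicate 1, control replicate 2, THZ531 replicate 2 or THZ531 + Endovion replicate 1, with a log2 change of 0.16 to 0.36 and an adjusted p of 0.0788 to 0.486. It was also lost with upper-quartile scaling (log2 0.22, adjusted p = 0.16), with only the 2 groups in the fit (log2 0.32, adjusted p = 0.12), and when reads of overlapping intervals were all added up (log2 0.02, adjusted p = 0.911), which took the nascent rise to 0.34 (adjusted p = 0.348). With both compounds nascent SON was at 297 ± 13.1 CPM and did not pass the test (log2 0.40, SE 0.17, adjusted p = 0.162). Against THZ531 alone the log2 difference was -0.42 (SE 0.17, unadjusted p = 0.0187, adjusted p = 0.487).

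The reads of SON came from 3 ends that do not overlap, at 16.02, 17.63 and 34.44 kb from the start site of SON-202, and these moved in opposite directions. At the SON-201 end in intron 6, T>C reads went from 89 and 77 in control cells to 403 and 308 with THZ531 and 208 and 162 with both compounds, against 85 and 85 with SRPIN340 and 54 and 34 with Endovion. The rise was 4.82-fold with THZ531 (log2 2.27, SE 0.23, edgeR adjusted p = 3.42e-11) and 2.81-fold with both compounds (log2 1.49, SE 0.23, adjusted p = 2.99e-06). All THZ531-treated libraries lay above all other libraries at this end.

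In total RNA the SON-201 end went from 322 and 197 reads in control cells to 1423 and 1230 with THZ531 and to 794 and 664 with both compounds, while SRPIN340 had 291 and 313 and Endovion 225 and 176. The rise was 5.82-fold with THZ531 (log2 2.54, SE 0.18, adjusted p = 7.12e-08) and 3.41-fold with both (log2 1.77, SE 0.18, adjusted p = 4.87e-06). The SON-203 end in intron 4 went from 324 and 351 reads to 608 and 608 with THZ531 and 725 and 487 with both, a rise of 2.03-fold (adjusted p = 0.00267) and 2.11-fold (adjusted p = 0.00214). At the SON-202 end in the last exon, total reads fell, from 2715 and 2507 to 1870 and 1379 with THZ531 and to 1550 and 1561 with both. This was a log2 change of -0.54 with THZ531 (SE 0.13, adjusted p = 0.00467) and of -0.48 with both (SE 0.13, adjusted p = 0.0111).

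The T>C reads of the SON-202 end fell as well with THZ531, from 219 and 200 to 139 and 73 (log2 -0.86, SE 0.23, edgeR adjusted p = 0.00948), and with both compounds they were at 101 and 110 (log2 -0.64, SE 0.23, adjusted p = 0.0681). The fall with THZ531 lost its call without control replicate 2 (log2 -0.77, adjusted p = 0.0874) or THZ531 replicate 2 (log2 -0.73, adjusted p = 0.165). The fall in total RNA with both compounds lost its call without control replicate 2 (log2 -0.39, adjusted p = 0.0801) or THZ531 + Endovion replicate 1 (log2 -0.33, adjusted p = 0.154). The rises at the SON-201 end, and those of the SON-203 end in total RNA, held in every fit with a library left out.

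The SON-201 end thus held 9.58% and 6.45% of the reads of SON in the 2 control libraries and 36.5% and 38.2% in the THZ531 libraries, and 25.9% and 24.5% with both compounds. Of the T>C reads of SON it held 27.7% and 25.1% in control cells and 68.8% and 75.7% with THZ531. The share of the SON-202 end went from 80.8% and 82.1% of reads to 47.9% and 42.9% with THZ531. It remained the end of SON with the most reads in all 10 libraries.

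SRRM2 (ENSG00000167978, chr16:2752626-2772538, plus strand) encodes the other large scaffold of speckles. As a gene it did not pass the test in any treatment in either measure: nascent SRRM2 was at 217 ± 11.8 CPM in control cells and at 227 to 259 CPM on average in the 4 treated groups, and total SRRM2 at 351 ± 12.8 CPM and 322 to 391 CPM (SD, n = 2). Its SRRM2-205 end, which starts just behind exon 10 and lies in intron 10, 8.21 kb from the start site, had 19 and 7 reads in control cells, 12 and 15 with SRPIN340 and 19 and 20 with Endovion, but 414 and 318 with THZ531 and 245 and 137 with both compounds. The rise was 31.4-fold with THZ531 (log2 4.97, SE 0.36, edgeR adjusted p = 8.35e-08) and 17.4-fold with both compounds (log2 4.12, SE 0.36, adjusted p = 1.54e-06), and both held in every fit with a library left out.

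The SRRM2-205 end remained a small part of the gene, 0.198% and 0.0819% of the reads of SRRM2 in control cells and 4.00% and 4.25% with THZ531. The SRRM2-201 end in the last exon had 9565 and 8541 reads in control cells and 9943 and 7159 with THZ531, a log2 change of 0.06 (SE 0.12, adjusted p = 0.748). Few reads of the SRRM2-205 end carried a conversion, 3 of 414 and 7 of 318 with THZ531 and 6 of 245 and 3 of 137 with both compounds, and none of the 19 and 7 in control cells. Over all 10 libraries 1.82% of the reads at this end carried a conversion. Of the 10699 ends with at least 1000 reads, 96.9% had a higher share. The SRRM2-205 interval holds 39.5% T in its sequence, against a median of 30.2% over those ends. This end was too low in T>C reads to be tested for nascent RNA.

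Of the 20 kept ends of the 10 genes, 15 could be tested in nascent and 18 in total RNA, each adjusted over all ends tested. With THZ531, 3 ends rose in nascent RNA, where 4.20% of all ends rose, and SON-202 fell, where 3.82% fell. In total RNA 8 ends rose with THZ531, where 15.4% of all ends rose, and SON-202 fell, where 14.6% fell. With both compounds 2 ends rose in nascent RNA (4.68% of all ends), and in total RNA 7 rose (14.9%) and SON-202 fell (12.9%). With SRPIN340 none of the ends passed the test in nascent or total RNA (1.05% and 1.17% of all ends changed), and with Endovion none did either (2.64% and 9.54%). An unadjusted p under 0.05 was reached by 3 nascent and 1 total end with SRPIN340 and by 2 and 3 with Endovion. Over all ends it was reached by 1093 of 10474 nascent and 3222 of 17457 total ends with SRPIN340 and by 1463 and 4554 with Endovion.

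A test of each end against the other ends of its gene, added after the values had been seen, asked whether the use of ends shifted. In total RNA the SON-201, SON-203 and SRRM2-205 ends gained with THZ531, where 10.3% of the 5000 ends tested gained, and SON-202 lost, where 4.76% lost. The log2 gain relative to the other ends was 2.23 for SON-201 (edgeR adjusted p = 3.66e-09), 0.71 for SON-203 (adjusted p = 0.0212) and 4.85 for SRRM2-205 (adjusted p = 2.39e-10), and the log2 loss of SON-202 was -0.85 (adjusted p = 0.000435). With both compounds the same 3 ends gained and SON-202 lost, where 6.86% gained and 2.38% lost, with log2 values of 1.66, 0.97, 4.08 and -0.59. In nascent RNA SON-201 gained and SON-202 lost with THZ531 (2.55% and 1.28% of 1175 ends) and with both compounds (1.45% and 0.255%), with log2 values of 1.46 and -1.67 and of 1.10 and -1.03. No end of the 10 genes shifted with SRPIN340 or Endovion in total RNA, where 0.0400% and 1.44% of all ends did, and none reached an unadjusted p under 0.05 there. In nascent RNA none of the 7 ends tested was called with SRPIN340 or Endovion. An unadjusted p under 0.05 was reached there by 1 end with SRPIN340 and 0 with Endovion. The matching counts over all ends are not reported here.

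Some of these shifts were lost when a library was left out. SON-203 with THZ531 was lost without control replicate 1 (adjusted p = 0.156) or THZ531 replicate 2 (adjusted p = 0.209), and with both compounds without THZ531 + Endovion replicate 1 (adjusted p = 0.116). SON-202 in total RNA with both compounds was lost without control replicate 2, THZ531 + Endovion replicate 1 or THZ531 + Endovion replicate 2 (adjusted p of 0.0711 to 0.246). Both nascent shifts with both compounds were lost without any 1 of the 4 libraries compared (adjusted p of 0.1 to 0.376). PNN, with 4 ends, RBM39 and CCNL2, with 2 each, were also tested for total RNA, and none of their ends was called in any treatment. Of these, RBM39-205 in intron 3 and CCNL2-202 in intron 5 are intronic as well. RBM39-205 was at 0.771 CPM in control cells and 0.679 CPM with THZ531, and CCNL2-202 at 3.89 and 4.28 CPM (means, n = 2). The CCNL1-201 end, in intron 3, had 25 reads over all 10 libraries and was too low to be tested.

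With both compounds the SON-201 and SRRM2-205 ends were lower than with THZ531 alone in both libraries. The SON-201 end was at 58.9 ± 10.1 CPM in total RNA with THZ531 and at 34.5 ± 0.0535 CPM with both, and the SRRM2-205 end at 16.1 ± 1.43 and 8.88 ± 2.48 CPM (SD, n = 2). This difference between both compounds and THZ531 alone was not tested for single ends. The interaction term in total RNA, which also counts what Endovion did alone, was tested with edgeR. It was -0.54 on the log2 scale for SON-201 (SE 0.25, unadjusted p = 0.0415, adjusted p = 0.391). For SRRM2-205 it was -1.59 (SE 0.51, unadjusted p = 0.00607, adjusted p = 0.28), so neither interaction passed the test. In nascent RNA the interaction for SON-201 was -0.11 (SE 0.34, unadjusted p = 0.754, adjusted p = 0.976). The tables give a number of reads per interval and not the place of each read. Reads from retained introns, from unspliced RNA or primed at A-rich stretches inside the intron would count at an intronic end as well, and their part was not tested.

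**Figure D3:**
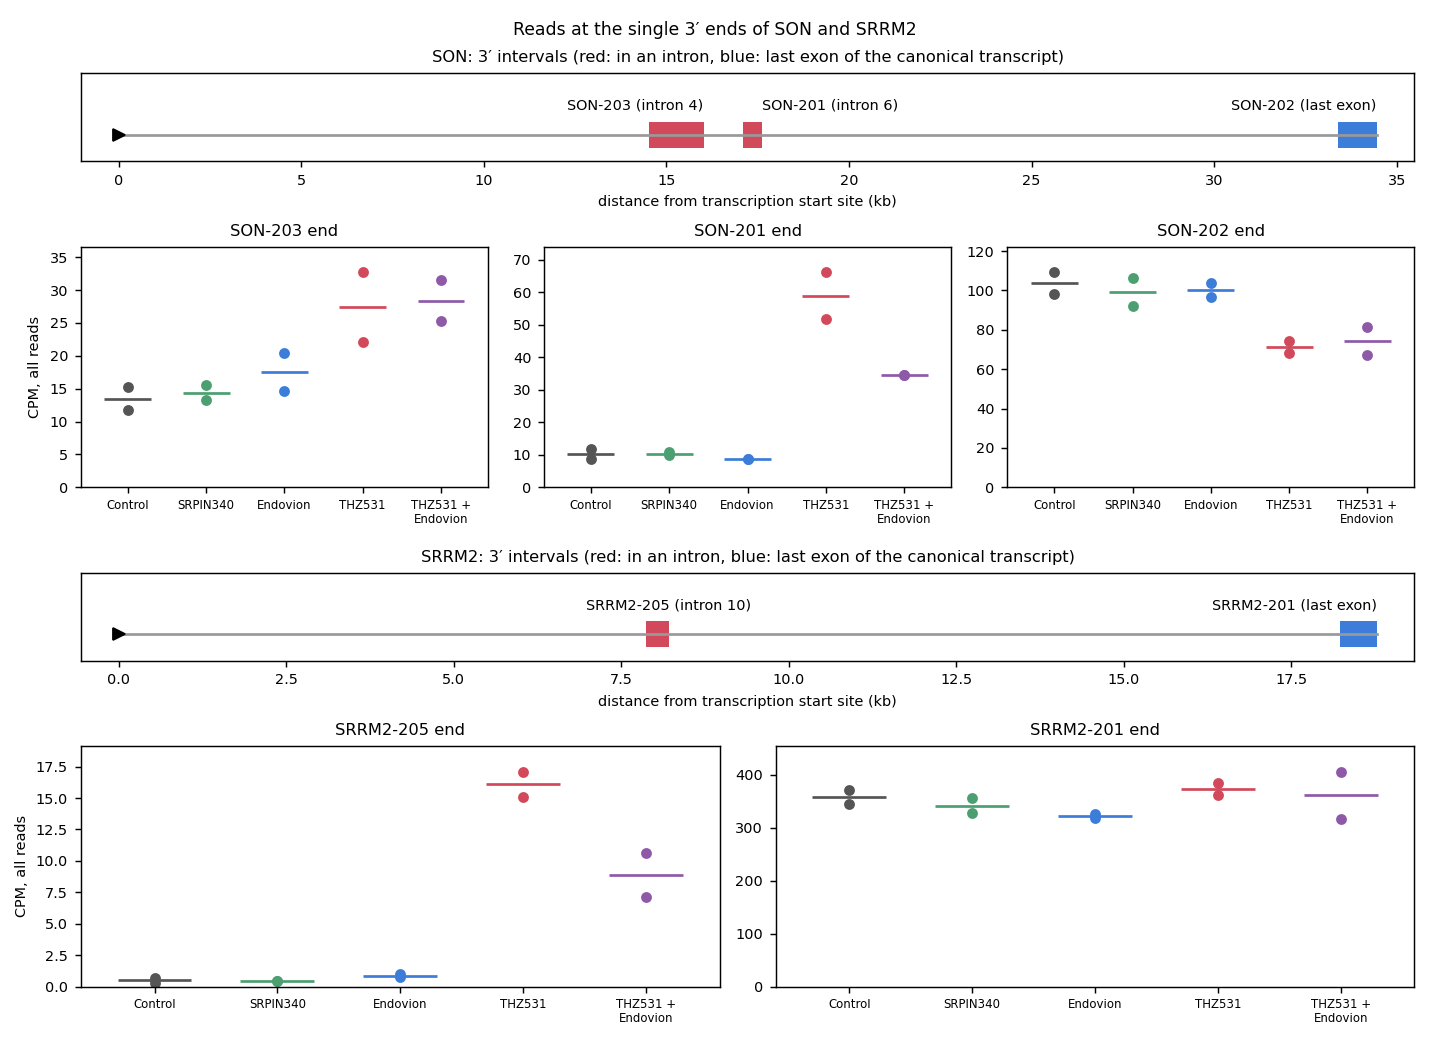
Place of the 3′ intervals of SON and SRRM2 by distance from the transcription start site in kb, and CPM of all reads at each end, with a point per library and a line for the mean of 2. The intronic SON-201 and SRRM2-205 ends are high in the 4 THZ531-treated libraries, at 34.5 to 66.1 and 7.13 to 17.1 CPM, while the last-exon end of SON is lower there.

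The T>C share differed widely between ends of SON. Over all 10 libraries 26.7% of the reads at the SON-201 end carried a conversion, against 6.91% at SON-202 and 5.64% at SON-203. The median over the 10699 ends with at least 1000 reads was 4.58%, and 0.383% of them had a higher share than SON-201. The SON-201 interval holds 36.4% T in its sequence and the SON-203 interval 37.2%, against a median of 30.2% over those ends. Within single ends the libraries with THZ531 did not lie above the controls: the share was 27.6% and 39.1% at SON-201 in control cells and 28.3% and 25.0% with THZ531, and 8.07% and 7.98% at SON-202 against 7.43% and 5.29%. Summed over its ends, the share of SON was 9.55% and 10.05% in control cells and 15.0% and 12.7% with THZ531, where the 95% Wilson intervals, which cover counting error only, were 8.60% to 11.2% and 11.5% to 16.2%. The change of the summed share was 0.64 on the log2 scale (SE 0.16, edgeR adjusted p = 0.0515) and did not pass the test.

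SRRM1 (ENSG00000133226, chr1:24631716-24673281, plus strand) encodes a coactivator that bridges SR proteins and the spliceosome. Its single end had few T>C reads, 10 and 6 in control cells, 26 and 30 with SRPIN340, 30 and 23 with Endovion, 17 and 64 with THZ531 and 30 and 26 with both compounds. All 8 treated libraries lay above both control libraries, and the 2 THZ531 libraries were the farthest apart, at 11.1 and 65.1 CPM. The fitted log2 change was 2.67 with THZ531 (SE 0.58, edgeR adjusted p = 0.00138), but 0.95 without THZ531 replicate 2 (adjusted p = 0.585). With both compounds it was 2.15 (SE 0.59, adjusted p = 0.0139), and 1.97 to 2.15 without control replicate 2, THZ531 + Endovion replicate 1 or THZ531 + Endovion replicate 2, with an adjusted p of 0.0604 to 0.117. With SRPIN340 and Endovion it was 1.66 (SE 0.59, adjusted p = 0.217) and 1.97 (SE 0.60, adjusted p = 0.0574), neither past the test, and the value with Endovion passed under 5 of 17 alternatives.

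In total RNA SRRM1 had 263 and 102 reads in control cells, 361 and 793 with SRPIN340, 683 and 492 with Endovion, 508 and 911 with THZ531 and 679 and 639 with both compounds. Again all treated libraries were above both controls. The log2 change was 2.29 with THZ531 (SE 0.61, edgeR adjusted p = 0.0373) and 2.20 with both compounds (SE 0.61, adjusted p = 0.0439). The call with THZ531 was lost without control replicate 1 or 2, THZ531 replicate 2, or any 1 of the Endovion and THZ531 + Endovion libraries (log2 1.39 to 2.97, adjusted p of 0.0539 to 0.179). That with both compounds was lost without any 1 library of control, Endovion or THZ531 + Endovion (log2 1.71 to 2.88, adjusted p of 0.0586 to 0.207). Both were lost without the low-count filter (adjusted p = 0.0695 and 0.0804), and the first also with only the 2 groups in the fit (adjusted p = 0.117).

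PNN (ENSG00000100941, chr14:39175183-39183220, plus strand) encodes pinin, an RS-domain protein of speckles and of the exon junction machinery. Its nascent RNA was at 217 ± 21.1 CPM in control cells and at 184 to 225 CPM on average in the treated groups, and did not pass the test in any of them. In total RNA it had 4932 and 4315 reads in control cells, 5917 and 4770 with THZ531 and 5259 and 4522 with both compounds. Scaled to depth this was 176 and 182 CPM, 218 and 256 CPM, and 231 and 237 CPM, so that the groups did not overlap. PNN rose 1.33-fold with THZ531 (edgeR adjusted p = 0.00972) and 1.31-fold with both compounds (adjusted p = 0.0135). The first call was lost without THZ531 replicate 2 (log2 0.23, adjusted p = 0.248) and the second without control replicate 2, THZ531 + Endovion replicate 1 or THZ531 + Endovion replicate 2 (log2 0.35 to 0.37, adjusted p of 0.0699 to 0.1). Both were also lost with upper-quartile factors (adjusted p = 0.0616 and 0.11) and with only the groups compared in the fit (adjusted p = 0.058 and 0.0534). The last-exon end of PNN held 57.8% to 62.8% of its reads in the 10 libraries. Its other intervals overlap exons 5, 6 and 7 of PNN-201, the canonical transcript, and no polyadenylation signal was found near their ends. Their reads are part of the sum of the gene.

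LUC7L3 (ENSG00000108848, chr17:50719565-50756219, plus strand) encodes a relative of a yeast U1 snRNP protein, and RBM39 (ENSG00000131051, chr20:35701347-35742312, minus strand) an RS-domain splicing factor that binds U2AF. LUC7L3 T>C reads numbered 193 and 214 in control cells and 247 and 197 with THZ531, which is 124 and 172 against 161 and 200 CPM, and these overlapped. It passed the test in no treatment in either measure, with log2 changes of -0.17 to 0.28 in nascent and -0.13 to 0.22 in total RNA.

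RBM39 had 80.0 and 57.4 CPM of total reads in control cells, and 92.1 and 87.5 CPM with SRPIN340, 92.9 and 96.7 with Endovion, 79.8 and 82.7 with THZ531 and 93.2 and 93.4 with both compounds. It rose 1.38-fold with Endovion (log2 0.46, SE 0.14, edgeR adjusted p = 0.04) and 1.36-fold with both compounds (log2 0.44, SE 0.14, adjusted p = 0.0248). Without control replicate 2 the log2 changes were 0.20 (adjusted p = 0.476) and 0.18 (adjusted p = 0.383). The call with Endovion was kept only when control replicate 1 was the library left out, and was lost without any 1 of the other 9 (log2 0.20 to 0.50, adjusted p of 0.0523 to 0.476). That with both compounds was also lost without THZ531 + Endovion replicate 1 (adjusted p = 0.13) or 2 (adjusted p = 0.0861). Both were lost with upper-quartile factors (adjusted p = 0.0909 and 0.0993) and with only the groups compared in the fit (adjusted p = 0.0868 and 0.0727). Its nascent RNA passed in no treatment.

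TRA2A (ENSG00000164548, chr7:23504780-23532041, minus strand) and TRA2B (ENSG00000136527, chr3:185914558-185938103, minus strand) encode the transformer-2 splicing activators, and their poison exons lie near the 5′ end, so that the 3′ end counts do not tell an mRNA with the exon from one without it. TRA2B T>C reads numbered 257 and 204 in control cells, 238 and 274 with SRPIN340, 243 and 203 with Endovion, 338 and 269 with THZ531 and 277 and 236 with both. This was 165 ± 1.22 CPM in control cells and 247 ± 37.8 CPM with THZ531 (SD, n = 2), a rise of 1.49-fold (log2 0.58, SE 0.18, edgeR adjusted p = 0.0391). The call was lost without any 1 of control replicates 1 and 2, THZ531 replicate 2 and SRPIN340 replicates 1 and 2 (log2 0.42 to 0.61, adjusted p of 0.0525 to 0.387). It was also lost without the low-count filter (adjusted p = 0.0639), with upper-quartile factors (adjusted p = 0.0519), with only the 2 groups in the fit (adjusted p = 0.0868) and with reads of overlapping intervals added up (adjusted p = 0.156).

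In total RNA TRA2B had 180 and 133 CPM in control cells, 241 and 288 CPM with THZ531 and 234 and 257 CPM with both compounds. It rose 1.68-fold with THZ531 (edgeR adjusted p = 0.000956), in every fit with a library left out, and 1.56-fold with both compounds (adjusted p = 0.00287), a call lost without control replicate 2 alone (log2 0.40, adjusted p = 0.0594). TRA2A had 152 and 154 CPM of total reads in control cells and 200 and 213 with THZ531 without passing the test (log2 0.43, SE 0.16, adjusted p = 0.0558), and it passed under 8 of 16 alternatives. With both compounds TRA2A was at 133 and 184 CPM, on both sides of the control libraries.

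CCNL1 (ENSG00000163660, chr3:157146508-157160760, minus strand) encodes cyclin L1. It had 793 and 613 reads in control cells, 958 and 1160 with SRPIN340, 882 and 823 with Endovion, 1188 and 1304 with THZ531 and 1530 and 1165 with both compounds. In CPM this was 28.3 and 25.8 in control cells, 35.8 and 36.8 with SRPIN340, 33.7 and 40.7 with Endovion, 43.8 and 69.9 with THZ531, and 67.1 and 60.9 with both, so that all 8 treated libraries were above both controls. CCNL1 rose 2.10-fold with THZ531 (log2 1.07, SE 0.18, edgeR adjusted p = 0.000718) and 2.37-fold with both compounds (log2 1.24, SE 0.18, adjusted p = 0.000265), and both calls held in every fit with a library left out. With SRPIN340 and Endovion the log2 changes were 0.43 (adjusted p = 0.219) and 0.46 (adjusted p = 0.117).

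The nascent RNA of CCNL1 passed the test in no treatment: T>C reads numbered 182 and 131 in control cells, 134 and 147 with SRPIN340, 113 and 89 with Endovion, 169 and 154 with THZ531 and 193 and 135 with both. With THZ531 the log2 change was 0.25 (SE 0.23, edgeR adjusted p = 0.59) and with Endovion -0.37 (SE 0.23, adjusted p = 0.508). The share of T>C reads was 23.0% and 21.4% in the control libraries and lay between 10.8% and 14.2% in the 8 treated libraries. The Wilson intervals of the controls ran from 18.3% to 26.0% and those of the treated libraries from 8.87% to 16.3%, so that they did not overlap. These intervals cover counting error within a library and not the spread between libraries. The log2 change of the share was -0.80 with SRPIN340 (SE 0.24, adjusted p = 0.246), -0.92 with Endovion (SE 0.25, adjusted p = 0.101), -0.85 with THZ531 (SE 0.24, adjusted p = 0.137) and -0.90 with both compounds (SE 0.24, adjusted p = 0.0591), with an unadjusted p between 0.000666 and 0.00228. None of the 4 passed the adjusted threshold. Without the filter on low counts the last 3 passed. All 4 comparisons rest on the same 2 control libraries.

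CCNL2 (ENSG00000221978, chr1:1385711-1399335, minus strand), which encodes cyclin L2, passed the test in no treatment and in neither measure. Its total RNA was at 79.2 ± 2.66 CPM in control cells and at 77.1 to 87.7 CPM on average in the treated groups, and its nascent RNA at 72.9 ± 9.3 CPM and at 60.3 to 82.3 CPM (SD, n = 2). The 2 cyclin L genes thus differed in their log2 change in total RNA with THZ531, 1.07 (SE 0.18) for CCNL1 and 0.15 (SE 0.15) for CCNL2, though the difference itself was not tested. For the 6 genes other than SON, CCNL1, PNN and SRRM2, the share of T>C reads averaged 3.79% to 5.77% in all 5 groups.

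**Figure D4:**
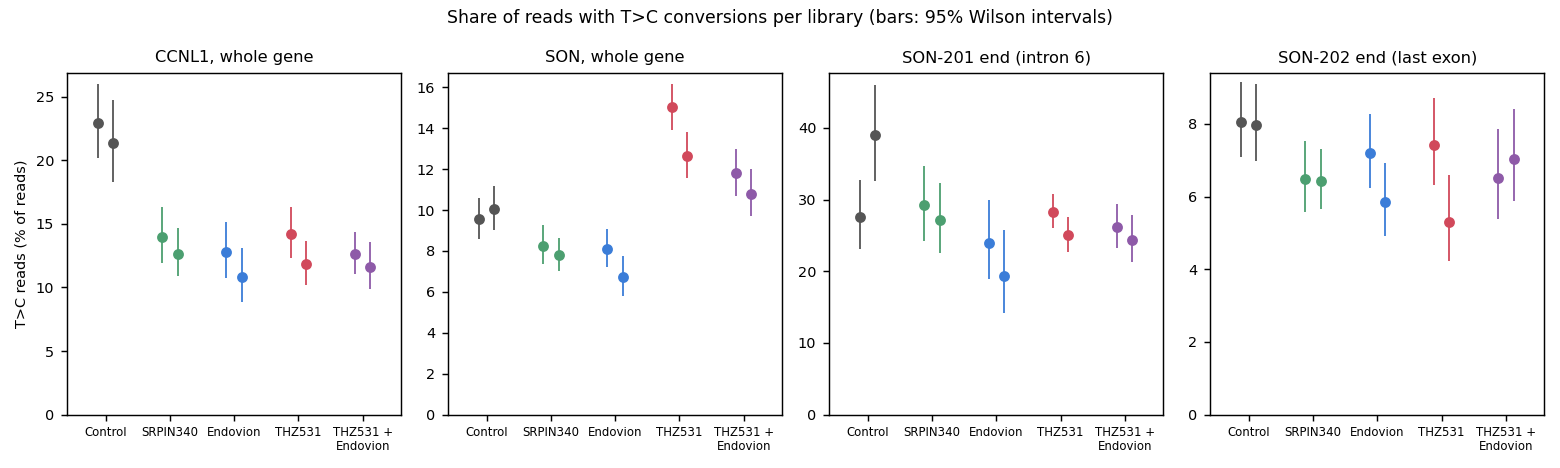
Share of reads with T>C conversions in each library, in percent, for CCNL1, for SON summed over its ends, and for the SON-201 and SON-202 ends, with 95% Wilson intervals as bars. The bars cover counting error within a library only. CCNL1 is at 21.4% and 23.0% in the control libraries and at 10.8% to 14.2% in the others, and the SON-201 end stays between 19.3% and 39.1% in all groups.

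Related genes were counted for comparison from lists of 40 other RS-domain and speckle genes, 12 SR splicing factors and 15 kinases of RS domains and of cyclins L. The lists were also chosen with earlier results of these data known. Of the speckle list, 19 of 40 tested genes rose and 5 fell in total RNA with THZ531, and 18 rose and 3 fell with both compounds, with a median log2 change of 0.42 and 0.35. Over all genes 16.6% rose with THZ531 and 16.6% with both, 30.7% and 29.0% changed, and the medians were -0.01 and -0.00. In nascent RNA 5 rose and 3 fell with THZ531 and 4 rose and 2 fell with both, where 3.86% and 4.62% of all genes rose and 7.46% and 8.11% changed. SCAF8, which binds the polymerase tail, rose 2.61-fold in total RNA with THZ531 (edgeR adjusted p = 3.58e-05), and RBM25, a U1-associated splicing factor, 1.75-fold (adjusted p = 0.000275). SRRM4, a neural splicing activator, fell, from 3739 and 3612 reads to 1239 and 663 with THZ531 (log2 -1.81, adjusted p = 8.53e-07) and to 1025 and 929 with both compounds (log2 -1.61, adjusted p = 4.92e-06).

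In nascent RNA RSRP1 and LUC7L2, a relative of LUC7L3, rose 3.28-fold and 2.59-fold with THZ531 (edgeR adjusted p = 4.12e-05 and 6e-05), and SRRM4 and SFSWAP fell by 1.35 and 1.64 on the log2 scale (adjusted p = 0.000779 and 0.00733). With Endovion, where 2.66% of all genes changed in nascent RNA, LUC7L2 rose 2.32-fold (adjusted p = 0.000647). CHERP fell by 0.57 on the log2 scale (adjusted p = 0.049) and SRSF7 by 0.72 (adjusted p = 0.00267), and no other gene of the lists was called there. With SRPIN340 none of the 3 lists had a called gene in either measure, where 1.04% of all genes changed in nascent and 1.96% in total RNA. Of the SR factors, 5 of 12 rose in total RNA with THZ531 and none fell, where 16.6% of all genes rose, and 2 rose and 3 fell with Endovion, where 8.91% of all genes rose and 11.4% changed. Their median log2 change was 0.24 with THZ531 and -0.08 with Endovion, against -0.01 and 0.02 over all genes. SRSF4 rose 2.44-fold with THZ531 (adjusted p = 0.00168) and 2.24-fold with Endovion (adjusted p = 0.00953), whereas SRSF7 fell by 0.55 on the log2 scale with Endovion (adjusted p = 0.0113). Of the kinases, 5 of 12 tested rose in total RNA with THZ531, 6 with both compounds and 2 with Endovion, and none fell, where 16.6%, 16.6% and 8.91% of all genes rose. Their median log2 changes were 0.36, 0.36 and 0.26, against -0.01, -0.00 and 0.02 over all genes. CLK3 rose 2.09-fold with THZ531 (adjusted p = 0.000572), DYRK2 1.74-fold (adjusted p = 0.000437), and SRPK1, the target of SRPIN340, 1.60-fold with Endovion (adjusted p = 0.0346).

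Among the genes whose nascent profile over the 10 libraries was most like the median profile of the 10 genes were SMIM15, EED, FBXO30 and TENT5C, with Pearson's r from 0.92 to 0.95 among 6181 genes compared. These points share libraries and depth. Against the same median profile, which includes each of them, the 10 genes ranged from -0.05 for RBM39 to 0.89 for TRA2B.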

How the data were processed

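The authors aligned 3′ end reads of SLAM-seq libraries to hg38 and deposited, per library, a table of counts: reads and T>C reads for 104653 3′ UTR intervals, made with SLAM-DUNK. Its version, settings, masking of variants and handling of molecular identifiers are not given in the sources used here.

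Intervals were matched to GENCODE v44, and 92823 of them were named. Where intervals of a gene overlapped, only the interval with the highest read number was used, which left 57504 intervals in 31014 genes. Intervals without a match held 3.57% of T>C reads. Counts were summed per gene and tested with edgeR 4.0.16 (TMM, filterByExpr, robust quasi-likelihood test, Benjamini-Hochberg over all genes or ends tested, called at an adjusted p under 0.05) in R 4.3.3, with all 10 libraries in 1 fit (5 residual degrees of freedom). The T>C share was tested as the interaction of treatment and read class with the library as a block, and end usage with diffSpliceDGE. On simulated data with 9207 genes for nascent RNA with THZ531, 34.0% of genes changed by 1 on the log2 scale and 73.9% of those changed by 2 were recovered. Fewer genes were changed in the simulation than were called in the data with THZ531, so recovery in the data can differ.

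Named are all 10 genes, up to 2 genes per list, direction and comparison with the smallest p, and the 5 genes most like the median profile, of which 1 is not reported here. The genes and lists were chosen with earlier results of these data known. DESeq2 1.42.0 was an alternative.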

Additional observations from a re-analysis of the deposited data

How the results depend on the processing

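Of 50 called values of the 10 genes and their ends, recomputed 681 times under other settings or without 1 library, 562 stayed called, 119 lost the call and 0 turned sign. Of 312 uncalled values recomputed 4355 times, 54 recomputed values were called, 0 of them with the other sign. Leaving out 1 library gave, for nascent RNA, 0 to 1 called genes with Endovion, 1 to 3 with THZ531, 0 to 1 with both compounds and 0 to 1 for the interaction, and for total RNA 0 to 2 with SRPIN340, 0 to 2 with Endovion, 2 to 5 with THZ531 and 1 to 5 with both. For single ends it gave 0 to 1 in nascent RNA with Endovion, 1 to 4 with THZ531 and 1 to 2 with both, and in total RNA 0 to 2 with SRPIN340, 0 to 3 with Endovion and 5 to 9 with both. For end usage with both compounds it gave 0 to 2 in nascent and 2 to 4 in total RNA. The shares of all genes or ends called under these settings, and under those below, are not reported here unless given.

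Adding up overlapping intervals left 0 nascent calls with THZ531 and 0 with both compounds. In that sum 48.8% of the T>C reads were repeat counts. Upper-quartile factors left 0 calls in total RNA with Endovion, 3 with THZ531 and 3 with both, and a fit of only the groups compared called 3 with THZ531 (CCNL1, TRA2B and the newly called TRA2A) and 3 with both (SRRM1, CCNL1 and TRA2B). With Endovion, upper-quartile factors moved the split of all calls in total RNA from 1308 up and 373 down to 1038 up and 944 down and the median log2 change from 0.02 to -0.10. With both compounds the split went from 2438 up and 1823 down to 1784 up and 2800 down. Scaling T>C reads by all reads moved the nascent median with Endovion from -0.01 to -0.11. DESeq2 called 2 genes and 2 ends in total RNA with Endovion, and its share over all genes and ends is not reported here. Without the filter on low counts 1 gene was called in nascent and 2 in total RNA with Endovion, and 1 gene, CCNL1, was called for the T>C share with each of Endovion, THZ531 and both compounds.

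The threshold of the study's methods (unadjusted p under 0.05 and a log2 change of at least 1), added after the data had been seen, gave 1 nascent gene, SRRM1, with each of the 4 treatments, where 332 genes of all rose and 131 fell with SRPIN340, 475 and 170 with Endovion, 562 and 630 with THZ531 and 615 and 510 with both. In total RNA it gave SRRM1 alone with SRPIN340 and with Endovion, so 1 each, and SRRM1 and CCNL1 with THZ531 and with both, so 2 each, where 530 genes of all rose and 88 fell, 859 and 151, 1018 and 1156, and 1062 and 974. Libraries with the same replicate number did not deviate together (r between -0.15 and 0.20), so the numbers were not taken to pair them. With the replicate block 1 gene and 1 end were called in nascent RNA with Endovion, and 4 genes in total RNA with both compounds, and the total RNA of SRRM1 lost its call with THZ531 (log2 2.18, adjusted p = 0.0586) and with both (log2 2.15, adjusted p = 0.061). The causes of these differences were not tested. Depth limits the genes and ends with few T>C reads.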
